A study of Mus musculus with 6 samples.

Results

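The mouse genes named Zfp900 to Zfp999 are zinc finger genes with consecutive numbers, spread over several chromosomes. They were chosen by symbol alone: every gene annotated as protein-coding whose symbol is Zfp9 followed by 2 digits. The rule found 63 genes of the 55401 gene IDs in the count table. The RNA came from aortas of ApoE-/- mice (replicates 1, 2 and 3) and of IL16-/-ApoE-/- double mutants (replicates 1, 2 and 3). All 6 libraries therefore came from mice that lacked Apoe by label, a deletion that makes mice prone to atherosclerosis, and that had eaten a high-fat diet for 24 weeks, begun when they were 8 weeks old. The labels name neither the strain nor the deleted exons, and do not say whether each library is 1 animal or a pool, so a p-value here rests on the spread among the 6 libraries, which may be technical. The family was proposed after 2 of its genes had been seen among the largest falls in this very comparison. Its fold changes are therefore given as a description.

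Most genes of this kind encode proteins with a KRAB box near the amino terminus and a row of C2H2 zinc fingers behind it. In each finger a pair of cysteines and a pair of histidines hold a zinc ion, and the residues of the helix between them read the DNA. The KRAB box recruits the co-repressor Trim28, which in turn brings the histone methyltransferase Setdb1 and heterochromatin proteins, and many KRAB zinc finger proteins silence transposable elements. The genes multiply by local duplication, so that neighbours on a chromosome are often near copies of each other. Here 57 of the 63 coding sequences held at least 1 match to the finger pattern, between 3 and 21 each, and 55 held a KRAB-box pattern near the start of the protein. The 6 with no match were Zfp935, Zfp957, Zfp968, Zfp972, Zfp986 and Zfp993. All but Zfp957, whose coding sequence has 1701 bases, have coding sequences of 450 bases or fewer.

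The first finger match of 4 members is shown here to let the signature be seen, since these 4 span the responses described below. The coding sequence is read 5′ to 3′ and the codons of the zinc-holding cysteines and histidines are in capitals.
Zfp942: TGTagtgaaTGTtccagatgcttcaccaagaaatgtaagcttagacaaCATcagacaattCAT
Zfp991: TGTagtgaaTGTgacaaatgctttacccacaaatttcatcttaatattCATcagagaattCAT
Zfp977: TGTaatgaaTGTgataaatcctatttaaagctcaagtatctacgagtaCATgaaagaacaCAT
Zfp969: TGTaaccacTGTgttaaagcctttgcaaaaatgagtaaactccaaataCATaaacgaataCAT
Each stretch is 63 bases long and begins at coding base 553, 724, 397 and 538, in that order. The bases outside the 4 capital codons differ between the members at some positions and are the same at others.

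Near copies limit what a read count can say. Zfp991 and Zfp992 are both in the chromosome 4 cluster, and their coding sequences of 1719 bases differ at 8 positions. Coding bases 620 to 739 of both are shown because they hold 2 of those positions, in capitals.
Zfp991: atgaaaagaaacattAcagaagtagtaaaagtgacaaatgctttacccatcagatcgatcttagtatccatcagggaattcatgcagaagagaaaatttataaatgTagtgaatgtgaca
Zfp992: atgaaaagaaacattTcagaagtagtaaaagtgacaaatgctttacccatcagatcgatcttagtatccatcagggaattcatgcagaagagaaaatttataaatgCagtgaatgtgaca
A read that lies between the capitals matches both genes. The share of 75-base stretches of a member's longest transcript that occur in no transcript of another gene was 20.0% for Zfp991 and 65.5% for Zfp992. No source names the read length or says how reads that fit several genes were handled. The 75 bases were therefore a choice. Over the family, 31 members were more than 90% unique by this measure, 16 lay between 50 and 90%, and 15 were under 50%. Zfp965, Zfp967, Zfp969 and Zfp935 had no unique stretch at all.

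Library totals were 85568269, 65730552 and 84993242 counts in ApoE-/- and 43340294, 47208779 and 42861980 in IL16-/-ApoE-/-. The ApoE-/- libraries spread more widely, with a biological coefficient of variation of 0.590 against 0.209. Il16, the gene deleted by label, stood at 28.3, 28.7 and 15.1 CPM (read counts scaled to the library total and TMM factor) in ApoE-/- and at 7.93, 12.1 and 12.2 in the double mutants. Its log2 fold change was -1.16 (SE 0.32, adjusted p = 0.163, edgeR's quasi-likelihood test), so the counts do not by themselves check that label. Apoe, deleted by label in all 6 libraries, was at 45.0, 24.9 and 20.9 and at 138, 183 and 137 CPM, an increase of 2.34 on the log2 scale (SE 0.33, adjusted p = 0.0369). Replicate 1 of ApoE-/- carried Xist at 474 CPM and Ddx3y at 0.143, whereas the other 5 libraries had Xist at 0.497 to 6.21 and Ddx3y at 70.1 to 136 CPM. Judged by these genes, replicate 1 looks like RNA from females, whereas the remaining libraries look like RNA from males. The sample labels used here list no sex. On this reading the ApoE-/- group mixes sexes and is not matched to the double mutants. The part of sex in the fold changes was not tested. ApoE-/- replicate 1 stands apart, so results are also given without it. The aortic markers were present in every library, but the makeup of the samples moved with the groups. Smooth muscle markers, 10 of 10 with a negative fold change, summed to 5193 to 32358 CPM in ApoE-/- against 10095 to 11424. All 12 kidney tubule markers were higher in the double mutants, with sums of 187 to 235 against 882 to 943 CPM, and 8 of the 12, Kap and Umod among them, were at 0 in every ApoE-/- library. Endothelial markers, 8 of 10 with a positive fold change, summed to 778 to 1240 CPM in ApoE-/- against 1396 to 1419. Macrophage markers summed to 474 to 5560 and 5080 to 7174 CPM, adipocyte markers to 1162 to 9257 and 6904 to 7420, cardiac markers to 95.7 to 126 and 237 to 458, and skeletal muscle markers to 3.21 to 9.94 and 19.2 to 339. The part of these differences in the values of the zinc finger genes was not tested, and in whole tissue fewer cells of a type and less RNA per cell cannot be told apart.

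Of the 63 members, 54 had enough counts to be tested and 49 had a mean of at least 1 CPM. The remaining 9 were near silent. Zfp936 had no count in any library, which allows up to 3 counts, or 0.0358 to 0.0698 CPM depending on the library. Zfp935, Zfp989, Zfp990 and Zfp987 had at most 6 counts in any library. The most that any of the 9 reached was 37 counts, for Zfp941 in double mutant replicate 2. 

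Levels of different genes were compared per kilobase of longest transcript. The tested members ran from 0.0540 to 14.0 CPM per kilobase, with a median of 2.99. Zfp970, in the chromosome 2 cluster, stood at 13.9 ± 1.41 in ApoE-/- and 8.86 ± 1.27 CPM per kilobase in the double mutants (SD, n = 3 each). Zfp943, on chromosome 17, stood at 13.4 ± 1.74 and 7.71 ± 0.846, and Zfp948 of the same cluster at 11.1 ± 2.95 and 7.63 ± 0.547. Zfp932, a gene on chromosome 5 whose paralogue is Gm15446, stood at 12.2 ± 6.44 and 6.75 ± 0.158 CPM per kilobase. Zfp993 was highest of all, at 17.3 ± 4.36 and 10.7 ± 2.23, but its only gene model is 387 bases long and holds no finger. Within the ApoE-/- group the SD ranges of neighbours in this order overlapped, when ranked by level. The order depends on which transcript is used. With the median transcript length, which is 466 bases for Zfp950 against 4825 for its longest transcript, Zfp950 came first at 76.8 CPM per kilobase.

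Only 2 members passed the adjusted threshold of 0.05, and both fell in the double mutants. Zfp942, on the minus strand of chromosome 17 (chr17:21926960-21962464, GRCm38, ENSMUSG00000071267), is a KRAB zinc finger gene with 11 finger matches. It was measured at 25.6, 21.01 and 28.5 CPM in ApoE-/- and at 11.8, 11.04 and 12.4 in IL16-/-ApoE-/-. The lowest ApoE-/- library was well above the highest double mutant library. The log2 fold change was -1.09 (SE 0.18, adjusted p = 0.0475, edgeR's quasi-likelihood test), and 96.0% of its transcript is unique. Zfp991, on the plus strand of chromosome 4 (chr4:147132038-147180579, ENSMUSG00000067916), was measured at 27.4, 29.0 and 29.3 CPM and at 14.4, 16.3 and 15.7. These groups too did not overlap, and each was tight. The log2 fold change was -0.88 (SE 0.14, adjusted p = 0.0453). Zfp991 shares 64.1% of its 75-base stretches with the pseudogene Znf41-ps, so its count may include that gene's reads. Both calls sit at the edge of the threshold: over 16 alternative fits the adjusted p ran from 6.25e-06 to 0.281 for Zfp942 and from 8.0e-08 to 0.304 for Zfp991. Neither passed when any 1 of the 5 libraries other than ApoE-/- replicate 1 was left out. Over all genes tested, 0.0605% of genes were called lower and 1.14% higher, and the rule's origin in this comparison means that nothing is read from the members' 2 calls.

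The family as a whole lay lower in the double mutants. The fold change was negative for 49 of 54 tested members, against 53.6% of all genes tested, and the median log2 fold change was -0.57 against -0.05. The quartiles of the members were -0.84 and -0.26. All 3 double mutant libraries were below all 3 ApoE-/- libraries for 27 of 54 members, where 11.5% of all genes showed that order. The opposite order held for 1 member, Zfp969, where 14.9% of all genes showed it. An unadjusted p under 0.05 with a negative fold change was found for 24 members, against 7.03% of all genes. Zfp978 and Zfp981 had under 10 counts in every double mutant library and so were tested only through their ApoE-/- counts. Without them, a choice made after seeing the data, 47 of 52 members were negative, the groups did not overlap downward for 25, and the median was -0.55.

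Summed over the 63 members, the libraries held 583, 622 and 757 CPM in ApoE-/- and 441, 441 and 425 CPM in IL16-/-ApoE-/-. The 3 double mutant sums were nearly equal and below every ApoE-/- sum, and replicate 3 of ApoE-/- was the highest. The median log2 CPM of the tested members was 3.19, 3.18 and 3.55 in ApoE-/- and 2.86, 2.83 and 2.74 in the double mutants. Over all genes tested the same median was 3.43, 3.31 and 3.25 against 3.47, 3.47 and 3.47, so it did not move down with the family. The highest library was an ApoE-/- one for 50 of 54 members, in 29 cases replicate 3, and the lowest was a double mutant for 49.

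**Figure D1:**
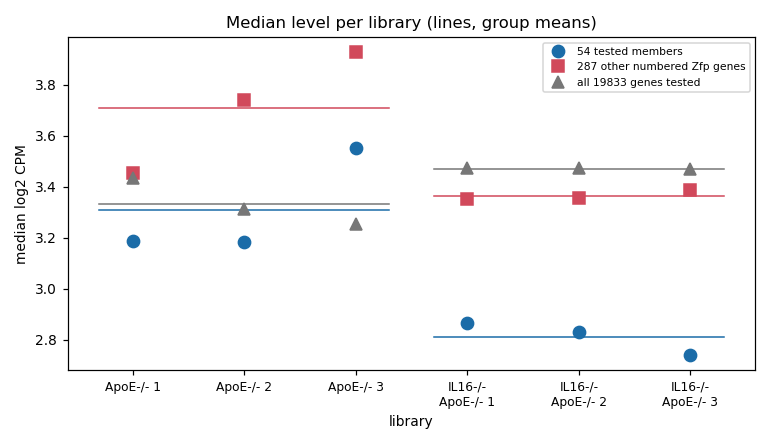
Median log2 CPM (vertical axis) in each of the 6 libraries (horizontal axis) for the 54 tested members (circles), 287 other numbered Zfp genes (squares) and all 19833 genes tested (triangles), with horizontal lines at the group means. The members lie between 3.18 and 3.55 in ApoE-/- and between 2.74 and 2.86 in IL16-/-ApoE-/-, while the median of all genes does not fall.

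Without ApoE-/- replicate 1 the family looked much the same in direction but not in the number of calls. The median log2 fold change was then -0.69, 51 of 55 tested members were negative, and 15 members passed the threshold, all lower. The 15 include Zfp981, tested only through its ApoE-/- counts, at 18 and 144 counts against 4, 4 and 4. In this fit 12 chromosome 4 members were tested, against 11 with all libraries. The count of 15 stands beside 12.8% of all genes called lower in the same fit, and 13.1% called higher. With all libraries, DESeq2 called 11 members lower and 0 higher, where it called 2.33% and 6.23% of all genes, and limma-voom with sample weights called 10 lower and 0 higher, where it called 7.5% and 9.39%. Of the 15, 6 were on chromosome 17, among them Zfp945 at -0.98 (SE 0.11, adjusted p = 0.00395) and Zfp983 at -1.05 (SE 0.22, adjusted p = 0.0214). Zfp950 was among those whose call depended on that library. It was at 20.8, 52.7 and 54.1 CPM in ApoE-/- and at 30.3, 29.6 and 27.3 in the double mutants. Its log2 fold change was -0.55 (SE 0.36, adjusted p = 0.479) with all libraries and -0.88 (SE 0.10, adjusted p = 0.00401) without replicate 1.

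By position, 45 members lie in 6 clusters, runs in which neighbouring members are at most 1 Mb apart, and 18 stand alone. The 10 members at chr17:21567008-22867134 all had negative fold changes, with a median of -0.82 and a range of -1.36 to -0.55. In 9 of them all double mutant libraries were below all ApoE-/- libraries, where 11.5% of all genes showed that order, and Zfp983 was the exception. These genes are also among the easiest to count, with a median unique share of 96.0%. Zfp947 had the most negative fold change in the block, at 7.02, 3.38 and 4.15 CPM against 1.98, 1.91 and 1.77 (-1.36, SE 0.37, adjusted p = 0.157). The double mutant libraries were nearly equal for it, while the first ApoE-/- library was the highest of its group. Zfp994 was at 14.98, 12.2 and 13.3 CPM against 7.28, 6.42 and 6.68 (-0.99, SE 0.19, adjusted p = 0.0792). Zfp945, whose transcripts of 6150.5 bases in the median are the longest of any member, was at 27.5, 35.2 and 38.4 against 19.4, 18.5 and 18.2 CPM (-0.85, SE 0.17, adjusted p = 0.0855). Both genes had every double mutant library well below every ApoE-/- library, yet neither passed the threshold. Zfp943 was at 35.4, 32.6 and 41.9 against 19.4, 23.8 and 20.2 CPM (-0.79, SE 0.17, adjusted p = 0.0955). Zfp948 was at 22.4, 28.3 and 37.9 against 21.9, 19.4 and 19.4 CPM (-0.55, SE 0.22, adjusted p = 0.2998), and its groups nearly touched. Zfp995, Zfp983, Zfp944 and Zfp946 had values of -0.85, -0.79, -0.58 and -0.56. The cluster also holds 6 tested coding genes outside the family, Zfp758 and Zfp760 among them, and all 6 were negative too, with a median of -0.72. Summed over the 10 members, the libraries held 190, 192 and 242 CPM in ApoE-/- against 126, 119 and 120 CPM in IL16-/-ApoE-/-.

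**Figure D2:**
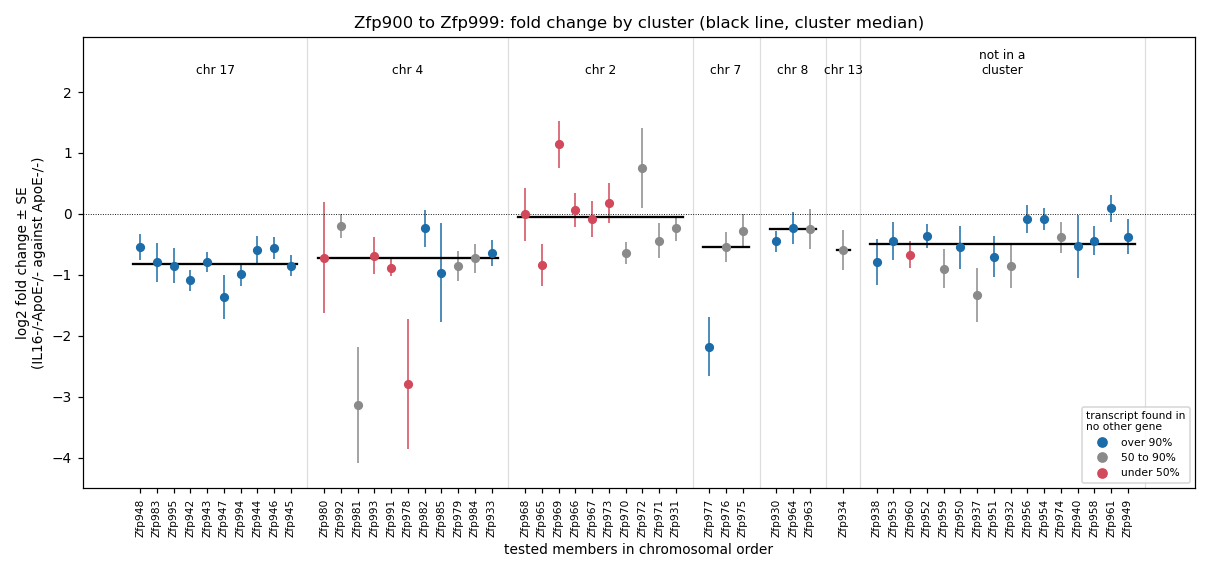
Log2 fold change with its SE (vertical axis, IL16-/-ApoE-/- against ApoE-/-) for each tested member in chromosomal order, grouped by cluster, with a black line at each cluster's median and colour for the share of the transcript found in no other gene. The chromosome 17 and 4 members all lie below 0, with medians of -0.82 and -0.73, and the chromosome 2 members lie on both sides, with a median of -0.05.

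The 16 members at chr4:145510759-147848366 are a region of many near copies, and 5 of them had too few counts to test. The 11 tested members all had negative fold changes, with a median of -0.73. In 7 of them the groups did not overlap downward, where 11.5% of all genes showed that order. Without Zfp978 and Zfp981 this was 9 of 9 negative, with a median of -0.72, and 5 with no overlap. The median unique share was 60.1%, leaving out Zfp986, whose model is too short for a value. Beside Zfp991, Zfp984 (-0.73, SE 0.24, adjusted p = 0.227), Zfp979 and Zfp933 (-0.64, SE 0.21, adjusted p = 0.225) were well expressed. Zfp979, with 3 finger matches, was at 15.7, 13.3 and 22.6 CPM against 10.7, 8.35 and 9.52 (-0.85, SE 0.25, adjusted p = 0.187), and its groups did not overlap. Zfp993 was at 5.51, 8.62 and 5.93 against 3.18, 4.43 and 4.84 CPM (-0.69, SE 0.31, adjusted p = 0.337). Zfp992, the near copy of Zfp991, was at 11.8, 13.8 and 11.9 against 12.1, 11.4 and 9.15 CPM, and its groups overlapped (-0.20, SE 0.20, adjusted p = 0.637). The difference between the 2 copies' fold changes was not tested. The most negative values in the family were of scarce transcripts: Zfp981 had 30, 18 and 144 counts against 4, 4 and 4 (-3.13, SE 0.95, adjusted p = 0.199), and Zfp978 was at 0.561, 0.258 and 0.286 CPM against 0.0691, 0.0840 and 0 (-2.79, SE 1.06, adjusted p = 0.282). For Zfp981 the third ApoE-/- library held most of the counts. The 2 tested coding genes of the cluster outside the family, Zfp600 and Gm13212, were negative as well. The members' summed CPM was 116, 107 and 115 against 71.4, 70.1 and 68.0.

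The 10 members at chr2:175372436-178078476 did not share that pattern. Their fold changes were negative for 6 and positive for 4, with a median of -0.05. The groups were apart downward for 2 and upward for 1, against 11.5% and 14.9% of all genes. The median transcript length per gene was short, from 417 to 1836 bases, and the members' median unique share was only 20.5%. Single transcripts are longer: the longest has 1458 bases for Zfp969 and 2939 for Zfp966. Zfp970 was the best expressed, at 21.2, 24.2 and 19.9 CPM against 12.9, 12.6 and 16.2 (-0.65, SE 0.18, adjusted p = 0.166), with no overlap between the groups. Zfp969 was the one member with every double mutant library above every ApoE-/- library, at 2.42, 2.61 and 1.45 CPM against 3.99, 3.76 and 6.61 (1.15, SE 0.39, adjusted p = 0.238). With the trend of fold change on transcript length removed, its value was 0.00. That fit used its median length of 417 bases, not the 1458 of its longest transcript. Zfp966 and Zfp967 have the same coding sequence of 1455 bases as Zfp969, base for base. Zfp966 was at 3.81, 5.49 and 3.95 CPM against 4.12, 4.91 and 4.79 (0.06, SE 0.28, adjusted p = 0.928). Zfp967 had a fold change of -0.09 (SE 0.30), so identical coding sequences carried values from -0.09 to 1.15. Zfp965 and Zfp973 likewise share an identical coding sequence of 954 bases. Zfp973 was at 2.33, 2.81 and 3.09 against 2.26, 3.67 and 3.35 CPM (0.17, SE 0.33, adjusted p = 0.812), with overlapping groups, while Zfp965 had a fold change of -0.83 (SE 0.34). How reads were divided among such copies is not known, so single values in this cluster are uncertain. Summing the members avoids that division among them, though not with genes outside the family: the sums were 55.8, 65.9 and 57.3 CPM in ApoE-/- and 45.3, 49.7 and 53.4 in the double mutants. Those sums did not overlap but lay closer than on chromosomes 4 and 17. Zfp970 held a large part of each sum, and without it the sums of the groups overlapped. The 23 tested coding genes of the region that are not members had a median of -0.32, with 17 negative.

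The smaller clusters and the single genes were mostly negative. At chr7:42579783-43192109, Zfp977, with 99.7% unique sequence, was at 1.65, 1.78 and 3.39 CPM against 0.645, 0.504 and 0.349 (-2.18, SE 0.49, adjusted p = 0.109). It had the most negative fold change of the members with a mean of at least 1 CPM, and its groups were far apart. Its neighbour Zfp976 was at 9.17, 13.3 and 14.8 against 7.21, 9.05 and 9.26 CPM (-0.54, SE 0.25, adjusted p = 0.350), a slight overlap, and Zfp975 was at -0.27 (SE 0.27). At chr8:69209038-69749970, Zfp930 was at 17.3, 14.1 and 16.7 against 12.5, 11.6 and 11.2 CPM (-0.45, SE 0.17, adjusted p = 0.283), and Zfp964 and Zfp963 were at -0.22 and -0.25. On chromosome 13, Zfp934 was at -0.59 (SE 0.32) and its partner Zfp935 was not tested. Of the 16 tested single members 15 were negative, with a median of -0.49. Zfp937 on chromosome 2, outside the cluster, was at 3.78, 5.52 and 4.85 CPM against 1.27, 3.04 and 1.33 (-1.33, SE 0.44, adjusted p = 0.234). Zfp932 was at 20.7, 21.9 and 49.3 against 16.7, 17.4 and 16.7 CPM (-0.86, SE 0.35, adjusted p = 0.311). Neither gene's groups overlapped, and in Zfp932 the third ApoE-/- library was far above the other two. Zfp959 was at 10.2, 9.15 and 18.03 against 8.16, 5.86 and 6.05 CPM (-0.90, SE 0.33, adjusted p = 0.265). Zfp974, which has the most finger matches of any member at 21, was at 11.5, 10.3 and 16.4 against 9.33, 11.5 and 8.42 CPM (-0.39, SE 0.25, adjusted p = 0.480). Zfp961 was the one single member with a positive value, at 15.5, 9.58 and 13.5 against 14.9, 13.1 and 13.1 CPM (0.09, SE 0.23, adjusted p = 0.860).

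**Figure D3:**
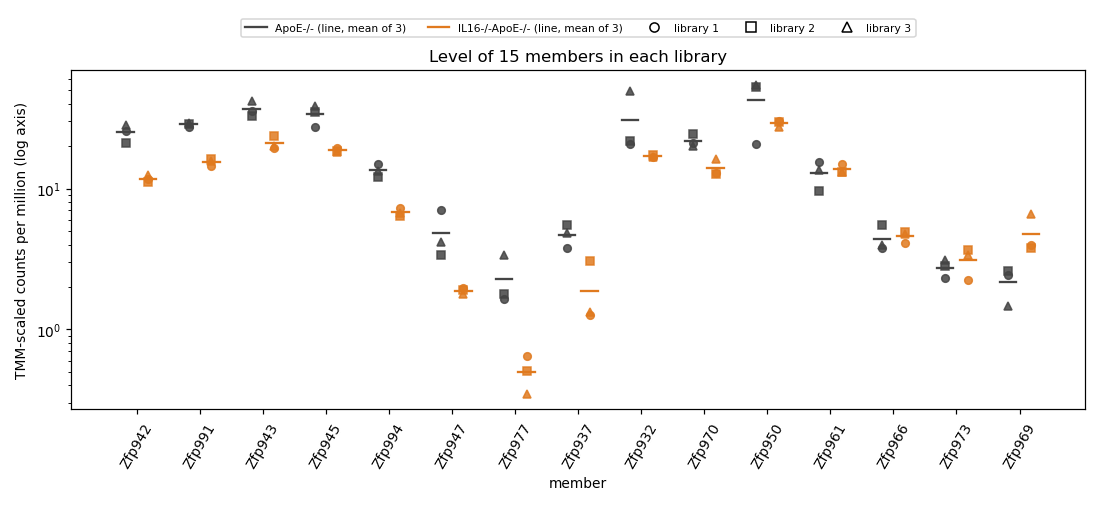
TMM-scaled CPM on a log axis (vertical) for 15 members (horizontal) in each ApoE-/- library (grey) and each IL16-/-ApoE-/- library (orange), with a symbol for each replicate and a line at each mean of 3. For Zfp942 and Zfp991 the groups are apart, Zfp950 and Zfp961 overlap, and only Zfp969 has all double mutant libraries on top.

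Without ApoE-/- replicate 1 the medians were -0.93 for the chromosome 17 members, -0.83 for chromosome 4, -0.72 for chromosome 7, -0.66 for single members, -0.26 for chromosome 8 and -0.14 for chromosome 2. The chromosome 2 median changed sign among the alternative fits, between -0.41 and 0.10, whereas those of chromosomes 17 and 4 stayed between -0.93 and -0.68 and between -0.95 and -0.66. Which of those 2 clusters lay lower was not stable: chromosome 4 was the lower one without ApoE-/- replicate 3, at -0.81 against -0.68, and in 4 other fits. The chromosome 4 members tested were not the same in every fit. They numbered 11 in the main fit, 12 without ApoE-/- replicate 1, 13 without double mutant replicate 1 and 16 without the filter on low counts. The last 2 fits were among those 4 other fits, and the -0.95 came from the one with 13 members.

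Transcript length was taken as the median over a gene's annotated basic transcripts. The 18 shortest tested members, of 387 to 1831 bases, had a median log2 fold change of -0.35, with 14 of 18 negative. The 18 of middle length, of 1836 to 2762 bases, had a median of -0.69 with 17 negative, and the 18 longest, of 2784 to 6150.5 bases, had -0.61 with all 18 negative. Other coding genes of the same lengths had medians of 0.15, -0.05 and -0.17, which fell from class to class. The members' median was lowest in the middle class. Other numbered Zfp genes, cut in the same way and up to 13834 bases long, had medians of -0.29, -0.39 and -0.40. In each of the 3 classes the members' median was the lowest of the sets compared.  Across the 54 members the Spearman correlation of fold change with length was -0.25. Over 15645 coding genes it was -0.26, and across 287 other numbered Zfp genes it was -0.05. Genes are not independent replicates, and these share libraries and sequence, so the correlations are descriptions. With the longest transcript in place of the median the members' value was -0.14 and that of coding genes -0.27, and over the 27 tested members with more than 90% unique sequence it was also -0.14.

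Among the shortest tested members were Zfp993, Zfp969 and Zfp950, of 387, 417 and 466 bases, with log2 fold changes of -0.69, 1.15 and -0.55. With the length trend removed these became -1.92, 0.00 and -1.64. That fit used the median lengths, while the longest transcripts of Zfp969 and Zfp950 have 1458 and 4825 bases. The longest members were Zfp945, Zfp974 and Zfp994, with -0.85, -0.39 and -0.99. The shortest class holds 9 of the chromosome 2 cluster members, with a median of -0.09 and 6 negative. Its other 9 members had a median of -0.55 with 8 negative.

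**Figure D4:**
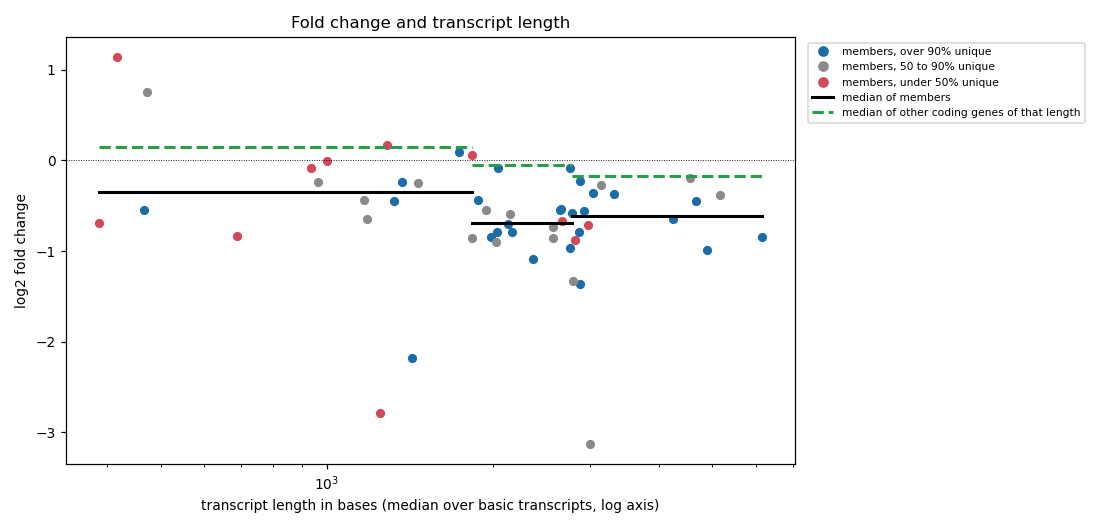
Log2 fold change (vertical axis) against median transcript length in bases on a log axis (horizontal) for the 54 tested members, coloured by unique share, with black lines at the members' median in each length class and dashed lines at the median of other coding genes of that length. The members' medians of -0.35, -0.69 and -0.61 lie below the 0.15, -0.05 and -0.17 of the other coding genes.

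Members were also read by how much of their sequence is shared. The 27 tested members with more than 90% unique sequence had a median log2 fold change of -0.56, with 26 of 27 negative. For 15 of them the groups did not overlap downward, where 11.5% of all genes showed that order. The 16 members between 50 and 90% had a median of -0.57 with 15 negative, and the 11 tested members under 50% had -0.67 with 8 negative. The differences between these classes were not tested. Overlapping gene models are a further limit. By the annotated gene spans, introns included, 17 members overlap a gene on the opposite strand and 16 overlap one on the same strand. An example is Zfp991 with Gm26624 and C230088H06Rik. The libraries were made to keep strand, per the labels' protocols, but the strand setting of the counting is not given. Overlap of exons was not examined, so it is not known which of these pairs share reads.

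Since whole clusters lay lower together, the upstream sequences were compared. Zfp942 and Zfp943 are divergent genes whose annotated starts leave 87 bases between them, and both had all double mutant libraries below all ApoE-/- libraries. Zfp944 stands in the same way 52 bases from Zfp758, a KRAB zinc finger gene outside the family with a fold change of -0.83 (SE 0.19, adjusted p = 0.115). Upstream sequence of 5 members follows, from RefSeq (GRCm38.p6), 5′ to 3′ on each gene's own strand and ending at the gene's start, with matches on either strand to CCAAT, to the motif CACGTG or to the motif GGGCGG in capitals. Zfp942 and Zfp994 stand for the chromosome 17 cluster, Zfp979 for chromosome 4, Zfp970 for chromosome 2 and Zfp977 for chromosome 7.
Zfp942, chr17:21962465-21962551, minus strand: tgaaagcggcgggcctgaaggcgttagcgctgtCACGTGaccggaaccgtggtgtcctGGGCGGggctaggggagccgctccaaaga
Zfp994, chr17:22225617-22225864, minus strand: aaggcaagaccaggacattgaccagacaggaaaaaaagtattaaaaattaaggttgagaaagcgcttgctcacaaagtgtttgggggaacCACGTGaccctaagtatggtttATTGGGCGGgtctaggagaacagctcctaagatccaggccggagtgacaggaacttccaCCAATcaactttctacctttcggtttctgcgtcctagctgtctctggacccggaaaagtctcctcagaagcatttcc
Zfp979, chr4:147642514-147642758, minus strand: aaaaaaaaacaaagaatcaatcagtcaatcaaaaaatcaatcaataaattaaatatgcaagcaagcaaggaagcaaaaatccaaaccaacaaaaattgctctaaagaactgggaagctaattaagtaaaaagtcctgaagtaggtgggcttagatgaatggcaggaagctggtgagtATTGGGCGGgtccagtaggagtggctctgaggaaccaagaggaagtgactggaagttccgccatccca
Zfp970, chr2:177464492-177464732, plus strand: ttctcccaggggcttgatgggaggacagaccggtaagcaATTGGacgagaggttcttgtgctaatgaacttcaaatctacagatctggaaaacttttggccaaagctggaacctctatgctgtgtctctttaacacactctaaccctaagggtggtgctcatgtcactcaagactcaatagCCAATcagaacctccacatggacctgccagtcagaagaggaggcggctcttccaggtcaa
Zfp977, chr7:42592548-42592795, minus strand: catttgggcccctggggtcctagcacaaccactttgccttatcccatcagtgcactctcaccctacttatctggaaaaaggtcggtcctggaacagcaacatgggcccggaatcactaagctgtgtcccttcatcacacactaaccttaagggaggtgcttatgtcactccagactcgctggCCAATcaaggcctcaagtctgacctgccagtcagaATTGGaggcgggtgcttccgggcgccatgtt
In Zfp994 and Zfp979 the reverse of CCAAT runs into GGGCGG as 1 capital block. The 87 bases of Zfp942 are also the whole stretch between it and Zfp943.

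The RefSeq promoter table held 60 promoters of 53 members, Zfp991 not among them. Each was searched over its 250 upstream bases on both strands for motifs picked after these sequences had been seen. CCAAT, the box bound by NF-Y, was in 46 of 60 member promoters (76.7%), against 33.8% of all 32851 promoters and 41.9% of those of other numbered Zfp genes. CACGTG, an E-box, was in 7 of 60 (11.7%), against 6.02% of all and 4.84% of other numbered Zfp genes' promoters. GGGCGG, a GC box, was in 17 of 60 (28.3%), against 32.7% of all and 43.9% of other numbered Zfp genes' promoters. TATAAA was in none, against 12.4% and 8.06%. The motifs followed the clusters. CACGTG was upstream of 6 of 10 chromosome 17 members and 1 of 10 on chromosome 4, and CCAAT upstream of 3 of 10 on chromosome 17 but 9 of 9 on chromosome 2. GGGCGG was upstream of 6 of 10 on chromosome 17, 7 of 10 on chromosome 4 and 0 of 9 on chromosome 2. Promoters of near copies are copies too, and a match is a run of letters, not a site shown to be bound.

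The lower values were not particular to the genes from Zfp900 to Zfp999. Of 302 other numbered Zfp genes 287 were tested, 254 were negative, and their median was -0.40; for 84 of them, 29.3%, the groups did not overlap downward, and none was called by edgeR's quasi-likelihood test. Of these, 56 had an unadjusted p under 0.05 and a negative value. Taken by range of number, each group of them, up to Zfp899, had a median between -0.31 and -0.48. The share with no overlap downward ran from 10% (Zfp600 to Zfp699) to 50% (Zfp0 to Zfp99, 24 of 48). The members' share was also 50%. By library their median log2 CPM was 3.45, 3.74 and 3.93 in ApoE-/- and 3.35, 3.36 and 3.39 in the double mutants, so replicate 3 of ApoE-/- was again the highest.

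Among 17 zinc finger genes outside the family with known targets, 16 were tested, 14 were negative and the median was -0.69. The 1 called lower was Peg3, an imprinted gene that carries a SCAN box and not a KRAB box, at 99.5, 82.5 and 114 CPM against 35.0, 37.4 and 41.4 (-1.38, SE 0.17, adjusted p = 0.0252). Gm15446, the paralogue of Zfp932, was at 10.3, 14.2 and 29.9 against 10.3, 12.6 and 8.91 CPM (-0.77), with replicate 3 of ApoE-/- again far above the rest. Zfp932 shares 30.8% of its 75-base stretches with Gm15446, so the counts of these genes may hold the same reads.

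The co-repressor machinery on which KRAB proteins rely was listed as 29 genes. Of these 28 were tested, 22 were negative, the median was -0.16 and none passed the threshold, with 6 at an unadjusted p under 0.05, all lower. Trim28, the KRAB co-repressor itself, was at 80.5, 85.4 and 141 CPM against 82.0, 84.5 and 83.0 (-0.30, SE 0.24, adjusted p = 0.568). All but the third ApoE-/- library were alike. Setdb1 was at 32.5, 39.5 and 37.8 against 40.0, 36.6 and 38.7 CPM (0.07, SE 0.14, adjusted p = 0.821), with overlapping groups. The smallest p values in the list were of the deacetylase Hdac1 (-0.46, SE 0.14, adjusted p = 0.194), Morc3 (-0.49, SE 0.15, adjusted p = 0.211), the chromatin remodeller Atrx (-0.62, adjusted p = 0.231) and Mta1, a subunit of the NuRD complex (-0.64, SE 0.21, adjusted p = 0.232).

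The gene whose log2 CPM over the 6 libraries was most like that of Zfp991, the member with the smallest p, was Ddx3x, an RNA helicase gene on the X chromosome (Pearson r = 0.997, n = 6 libraries of 2 groups). Ddx3x was at 432, 450 and 450 CPM against 284, 295 and 285. The next were Vmn2r-ps117, Gm18360, Gm42909 and 1700022I11Rik, each with r = 0.993. The first 3 of these were below 0.35 CPM in ApoE-/- and at 0 in the double mutants. Zfp991's groups lie apart, so any gene that differs in the same direction by much more than its spread within groups has a high r. The likeness therefore repeats the group difference.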

How the data were processed

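Polyadenylated RNA of mouse aorta was sequenced in 6 libraries. The authors deposited raw counts per Ensembl gene; cutadapt, HISAT2 and StringTie are named in the submitters' processing notes, while no source used here gives the counting program, strand setting, genome build or read length. The protocol in the labels describes a strand-keeping library. Samples were grouped by title, 3 against 3.

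All counts were fitted together with edgeR 4.0.16 (R 4.3.3): filterByExpr (minimum count 10, minimum total 15), TMM factors, robust quasi-likelihood test, Benjamini-Hochberg adjustment over 19833 genes, threshold 0.05. The fit was tested on simulated data. The simulated libraries had the same spread in both groups, unlike the real ones. CPM are scaled by TMM factors, and fold changes are the double mutants over ApoE-/-. DESeq2 1.42.0 and limma 3.58.1 gave alternatives. Positions, transcripts and coding sequences come from GENCODE M21 (GRCm38), promoters from RefSeq. Fingers were matched as C2H2 spacing in the translated coding sequence, the KRAB box by its conserved core.

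Named members were those past the threshold, with the largest changes among those at a mean of at least 1 CPM, highest per kilobase, longest, shortest and best expressed per cluster; others named are cluster neighbours chosen after their values were seen. Members and lists were chosen with earlier results of these data known. Total counts ran from 42861980 to 85568269; 3 counts equal 0.0358 to 0.0698 CPM, and such floors cover counting error only.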

Additional observations from a re-analysis of the deposited data

How the results depend on the processing

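The median log2 fold change of the members stayed negative in all 16 alternative fits, from -0.69 to -0.44. The number of members past the threshold, 2 lower, did not hold. It was 1 with upper-quartile factors, without the filter on low counts and with limma-voom, and 11 with DESeq2 (2.33% of all genes called lower) and 10 with limma-voom sample weights (7.5%). It was 0 with the trend of fold change on transcript length removed. Leaving out 1 library gave 0 to 15, with 15 only without ApoE-/- replicate 1; without any 1 double mutant library no gene of the whole table was called. Restricting the family to members with more than 90% unique sequence, an alternative added after seeing the data, gave 1. No member was called higher in any of these fits. Why the counts moved was not tested.

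Replicate numbers are shared between the groups, but the deviations of same-numbered libraries correlated at -0.040, -0.027 and -0.0095, so the numbers were not taken to pair the libraries. With the replicate block 0 members, and 0 genes in all, were called.

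The correlation of fold change with length turned to 0.13 with the length trend removed, which removes that relation by construction, and ran from -0.27 to -0.10 with 1 library left out. Single reversals were of values near 0: Zfp973 with the length trend removed (-0.033), Zfp966 with sample weights (-0.11) and with the length trend removed (-0.0038). With 1 library left out, Zfp961 ran from -0.076 to 0.25 and Zfp966 from -0.036 to 0.25. Of all comparisons of named members with alternatives 306 kept direction and call, 23 gained a call, 17 lost one and 6 reversed.

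With 3 libraries a group and 42861980 counts in the smallest, members that did not reach about 10 counts in at least 3 libraries could not be tested.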
